A study of Mus musculus with 17 samples.

Results

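The constitutive androstane receptor (CAR, gene Nr1i3), the pregnane X receptor (PXR, Nr1i2), their dimer partners Rxra and Rxrb, the liver X receptors Nr1h3 and Nr1h2, the aryl hydrocarbon receptor Ahr and the glucocorticoid receptor Nr3c1 were followed together with Por and Alas1, which supply cytochrome P450 enzymes with electrons and heme. These 10 genes were taken by name, 10 of 49315 genes in the liver table and 10 of 15632 genes in the hepatocyte files. All 10 were above 0 in all 8 liver libraries and listed in all 9 hepatocyte libraries.

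Transcripts were counted by RNA sequencing. In mouse liver, 4 SMSrKO libraries were set against 4 wild-type (WT) libraries, all from mice given a high-fat diet with fructose in the water for 16 weeks. SMSr, encoded by Samd8, is a relative of the sphingomyelin synthases. In mouse hepatocytes released with collagenase from animals 2 months old, 3 Sms1/Sms2/Smsr-tKO libraries (tKO) and 3 Sms1/Sms2-dKO libraries (dKO) were set against 3 WT libraries. Sms1 and Sms2 are encoded by Sgms1 and Sgms2. The tKO and dKO mice thus share the lesions of Sgms1 and Sgms2, and the labels describe no special diet for them. No label gives the kind of allele, the cells in which it is active, the strain or the sex. Nor do the labels tie each library to its own animal, so the p-values cover variation among the sequenced libraries, which may be technical.

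CAR and PXR are nuclear receptors that respond to drugs, bile acids and other foreign or endogenous lipids, pair with RXR and switch on cytochrome P450, conjugation and transport genes. The liver X receptors sense oxysterols, also pair with RXR, and drive genes of cholesterol export and fatty acid synthesis. AHR belongs to a different family, pairs with ARNT after binding planar aromatic ligands, and its classical target is Cyp1a1, while the glucocorticoid receptor waits in a complex with HSP90 and its cochaperones. POR passes electrons from NADPH to microsomal P450 enzymes, and ALAS1 makes the first and limiting step of heme synthesis in liver, the heme going largely into those same enzymes.

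Liver libraries held 24391627 to 47351126 counts, and hepatocyte libraries 9221487 to 9665314 rounded expected counts. Libraries of a group varied far more in liver, where the common biological coefficient of variation was 20.3%, than in hepatocytes, where it was 3.52%. Of the targeted genes, transcripts of Samd8 and Sgms1 were not lower in the groups named for their loss, and those of Sgms2 were lower in part, with 50.3 to 59.0 CPM (counts scaled to library size) of Samd8 in SMSrKO liver against 38.0 to 51.7 in WT liver. In hepatocytes, Samd8 was at 97.6 to 103 CPM in tKO against 66.0 to 73.1 in WT, Sgms1 at 85.1 to 96.2 CPM in dKO against 45.9 to 52.2 in WT, and Sgms2 at 133 to 164 CPM in dKO against 175 to 191 in WT (log2 fold change −0.29 ± 0.0521, edgeR adjusted p = 6.22e-06). The labels do not say which parts of these genes were deleted, so counts over a whole gene do not check the genotypes, and the groups are named here by their labels. The protocol names subcutaneous fat for the SMSrKO experiment, but 11 hepatocyte markers summed to 96855 to 109272 CPM in SMSrKO and 78581 to 85179 CPM in WT libraries. The sum of 7 adipocyte markers was 18.4 to 26.4 CPM in SMSrKO and 17.0 to 116 CPM in WT libraries, with Lep at 0 in all 8. Of the 3 tested, Fabp4 was called lower in SMSrKO, at 9.33 ± 0.868 CPM against 16.9 ± 2.86 CPM in WT (edgeR adjusted p = 0.0434). Cidec and Cfd were not called. Library WT 1 of liver, which held the most counts of all, stood apart from the other WT libraries across all genes, with a chi-square per degree of freedom of 168 to 185 against each of them, where they had 26.1 to 56.0 among themselves. Without WT 1, 109 genes were called in liver in place of 37, and 0 of the 10 in both cases.

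Markers of other cells moved with genotype in the hepatocyte libraries. The sum of 14 endothelial markers was 168 to 176 CPM in tKO and 232 to 250 CPM in dKO, against 78.8 to 85.4 CPM in WT, and 12 of the 13 tested were called higher in each knockout. The sum of 12 macrophage markers was 367 to 388 CPM in tKO and 323 to 341 CPM in dKO, against 121 to 136 CPM in WT, where C1qc and Vsig4 were at 0 in all 3 libraries. Most of that sum was Cd68, at 248 ± 16.7 CPM in tKO and 201 ± 5.96 CPM in dKO, against 100.3 ± 7.81 CPM in WT, and Mpeg1, at 116 ± 5.88 CPM in tKO and 122 ± 14.8 CPM in dKO, against 28.0 ± 0.343 CPM in WT. Of the 6 tested, Cd68 alone was called higher in tKO than in dKO, while C1qa and Cd5l were called lower in tKO than in dKO (log2 fold changes −1.15 and −0.82), with C1qb at −0.59, C1qc at −1.05 and Mpeg1 at −0.06 not called, and C1qa, C1qb, C1qc and Cd5l each averaged 2.44 CPM or less in every group. The sum of 12 stellate cell markers was 36.9 to 41.3 CPM in tKO and 61.4 to 65.9 CPM in dKO, against 16.4 to 20.5 CPM in WT, where Acta2, Lrat and Lum were at 0. The sum of 8 cholangiocyte markers was 268 to 285 CPM in tKO and 393 to 416 CPM in dKO, against 264 to 275 CPM in WT, so that it was highest in dKO, as was Nr1i3. Its members went separate ways: Sox9 was at 163 ± 4.04 CPM in tKO and 206 ± 9.35 CPM in dKO, against 77.6 ± 8.35 CPM in WT, while Spp1 was at 90.7 ± 5.57 CPM in tKO and 177 ± 7.14 CPM in dKO, against 176 ± 6.22 CPM in WT. The sum of 11 hepatocyte markers ran the other way, at 55802 to 58022 CPM in tKO and 62027 to 63293 CPM in dKO, against 71040 to 72719 CPM in WT. A sum of 10 immediate early genes, which respond to handling and stress, was 1543 to 1608 CPM in tKO and 1600 to 1646 CPM in dKO, against 985 to 1065 CPM in WT. The part of these shifts in the results that follow was not tested.

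Promoters are shown for 4 of the genes that changed in hepatocytes, CAR, PXR, RXRα and ALAS1, whose windows differ in the motifs they hold or, for CAR, hold none of those searched. They come from RefSeq on GRCm38.p6, run 5′ to 3′ on the gene's strand and hold 250 bases before and 50 after an annotated start. Capitals mark matches, on either strand, to AGGTCA (the core bound by nuclear receptors), GCGTG (the core bound by AHR with ARNT), GGGCGG (a GC box), TATAAA or CCAAT. None of the matches overlapped another. For Nr1i2 the interval was chr16:38294775-38295074 on the minus strand, for Nr1i3 chr1:171213720-171214019 on the plus strand, for the second Rxra start chr2:27709042-27709341 on the plus strand, and for the first Alas1 start chr9:106247905-106248204 on the minus strand.
Nr1i2: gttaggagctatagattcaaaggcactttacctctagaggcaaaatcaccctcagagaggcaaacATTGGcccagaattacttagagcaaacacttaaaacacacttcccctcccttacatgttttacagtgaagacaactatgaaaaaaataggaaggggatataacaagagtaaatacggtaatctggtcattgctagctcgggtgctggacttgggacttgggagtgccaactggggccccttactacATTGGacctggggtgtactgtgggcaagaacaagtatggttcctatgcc
Nr1i3: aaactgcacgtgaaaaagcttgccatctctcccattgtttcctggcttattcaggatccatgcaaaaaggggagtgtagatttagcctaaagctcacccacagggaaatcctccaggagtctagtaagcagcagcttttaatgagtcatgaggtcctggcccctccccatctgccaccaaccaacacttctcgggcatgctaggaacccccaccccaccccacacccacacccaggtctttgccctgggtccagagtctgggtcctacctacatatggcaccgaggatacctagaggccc
Rxra: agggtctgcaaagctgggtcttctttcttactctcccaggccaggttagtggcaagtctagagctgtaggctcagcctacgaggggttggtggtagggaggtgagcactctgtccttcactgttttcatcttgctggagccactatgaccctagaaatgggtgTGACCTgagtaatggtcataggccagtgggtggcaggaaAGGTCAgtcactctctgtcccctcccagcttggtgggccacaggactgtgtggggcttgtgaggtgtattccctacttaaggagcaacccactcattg
Alas1: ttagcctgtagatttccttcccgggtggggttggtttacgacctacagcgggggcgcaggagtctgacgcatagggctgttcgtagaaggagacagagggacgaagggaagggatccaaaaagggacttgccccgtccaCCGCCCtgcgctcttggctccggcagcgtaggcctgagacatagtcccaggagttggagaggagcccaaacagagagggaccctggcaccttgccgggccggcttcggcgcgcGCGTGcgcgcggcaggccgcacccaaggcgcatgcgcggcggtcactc

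The Nr1i2 window held 2 matches to CCAAT, both on the opposite strand, and the Nr1i3 window held none of the 5 motifs. The second Rxra window held 2 matches to AGGTCA, 1 on each strand, and no other of the 12 windows of these genes held that core. The first Rxra window, not printed here, held 4 GC boxes and none of the other motifs. Which Rxra start was used in these libraries was not tested. The Alas1 window held 1 GCGTG and 1 GC box. Among 32851 mouse promoters of the same length, 37.4% held CCAAT, 16.3% AGGTCA, 32.4% GCGTG and 35.7% GGGCGG, so each match was of a common kind. In all, 8 of the 10 genes had a promoter entry. No promoter is shown for Ahr or Nr3c1.

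The genes differed widely in level, and their order differed between the experiments. Per length, Alas1 led in WT liver at 708 ± 215 TPM (transcripts scaled to length and depth; SD, n = 4), followed by Por at 602 ± 47.7 TPM, and the ranges of those 2 overlapped. Next came Rxra at 277 ± 5.61 TPM, then Nr1i3 at 149.6 ± 58.8, Nr1h3 at 119.7 ± 7.60 and Nr1i2 at 109 ± 9.69 TPM, and among these last 3 neighbours overlapped. Nr1h2, Nr3c1 and Rxrb stood between 36.0 and 27.2 TPM on average and also overlapped their neighbours, and Ahr was lowest at 12.7 ± 0.705 TPM, apart from the rest. In SMSrKO liver Nr1i3 stood apart from the genes beside it in that order, at 232 ± 19.4 TPM.

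In hepatocytes CAR and PXR, which hold the middle of the order by deposited TPM in liver, stood at the foot of the order by deposited FPKM. In WT hepatocytes the deposited FPKM (fragments scaled to length and depth) averaged 238 ± 8.75 for Por, 68.9 ± 2.89 for Alas1 and 49.7 ± 0.422 for Nr1h2 (SD, n = 3), each apart from the next. Nr1i3 stood at 5.80 ± 0.157 FPKM and Nr1i2, the lowest, at 2.67 ± 0.174 FPKM, and these last places held in tKO and dKO hepatocytes too. Above them, Rxra overlapped Nr1h3 and Nr1h3 overlapped Nr3c1 in WT, and in tKO Rxrb overlapped Rxra. The experiments differ in diet, age, cell isolation, kit, counting and unit, so the orders are set side by side with no test. The length used for Nr1i3 also differed, at 4414 bases in liver and 1394 to 1417 bases in hepatocytes. Of its liver bases, 3304 are shared with Tomm40l, a gene on the other strand, so its place in the liver order is uncertain.

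**Figure D1:**
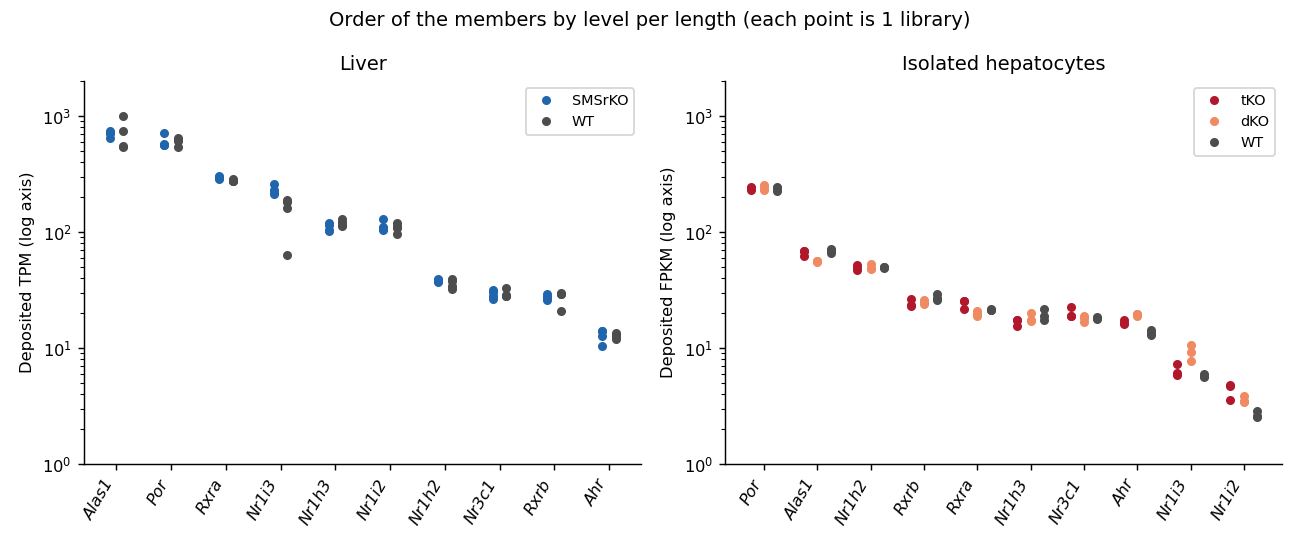
Level of each gene per length, in deposited TPM for liver (left) and deposited FPKM for hepatocytes (right), on log axes, with 1 point per library. Genes run in the order of the WT mean: Nr1i3 averaged 149.6 TPM in WT liver and stood in the middle, while in WT hepatocytes Nr1i3 and Nr1i2 were the lowest at 5.80 and 2.67 FPKM. The gene length used for Nr1i3 was longer in liver than in hepatocytes.

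Differences between genotypes were small for most of the genes. In SMSrKO against WT liver, none of the 10 genes passed edgeR's quasi-likelihood test at an adjusted p of 0.05, where 0.234% of 15820 genes tested did. With no adjustment 1 of the 10 was under 0.05, and DESeq2 called 0 where it called 1.54% of all genes. In dKO against WT hepatocytes 5 of 10 passed, where 44.0% of 11471 genes did; 3 of them were higher, where 24.0% of genes were. In tKO against WT hepatocytes 5 of 10 passed, where 47.4% did, and 3 were higher, where 25.6% were. In tKO against dKO hepatocytes 5 of 10 passed, where 29.5% did, and 3 were higher, where 14.3% were. The counts against WT were near the share of all genes. DESeq2 called 3, 3 and 4 of the 10 in these contrasts, where it called 26.3%, 28.5% and 14.7% of genes. The median size of the log2 fold change over the 10 genes was 0.13 in dKO and 0.14 in tKO against WT, where it was 0.19 and 0.21 over all tested genes, and 0.19 in tKO against dKO, where it was 0.14.

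Groups did not overlap for 6 of the 10 genes in dKO against WT, where that held for 51.9% of genes, 3 of them higher, where that held for 26.7%. In tKO against WT they did not overlap for 4, where that held for 53.4% of genes, 3 of them higher (27.8%), and in tKO against dKO for 4, where that held for 39.8%, 2 of them higher (19.6%). Both contrasts against WT use the same 3 WT libraries, and all 3 contrasts share libraries in pairs. The calls rest on the small spread between hepatocyte libraries. When the dispersion of the liver libraries was used for the hepatocytes, 0 of 10 genes were called in each contrast, where 9.20%, 10.6% and 2.84% of genes tested were called in the dKO and tKO contrasts with WT and in tKO against dKO. With no adjustment, p was under 0.05 for 2, 1 and 1 of the 10 in that setting.

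**Figure D2:**
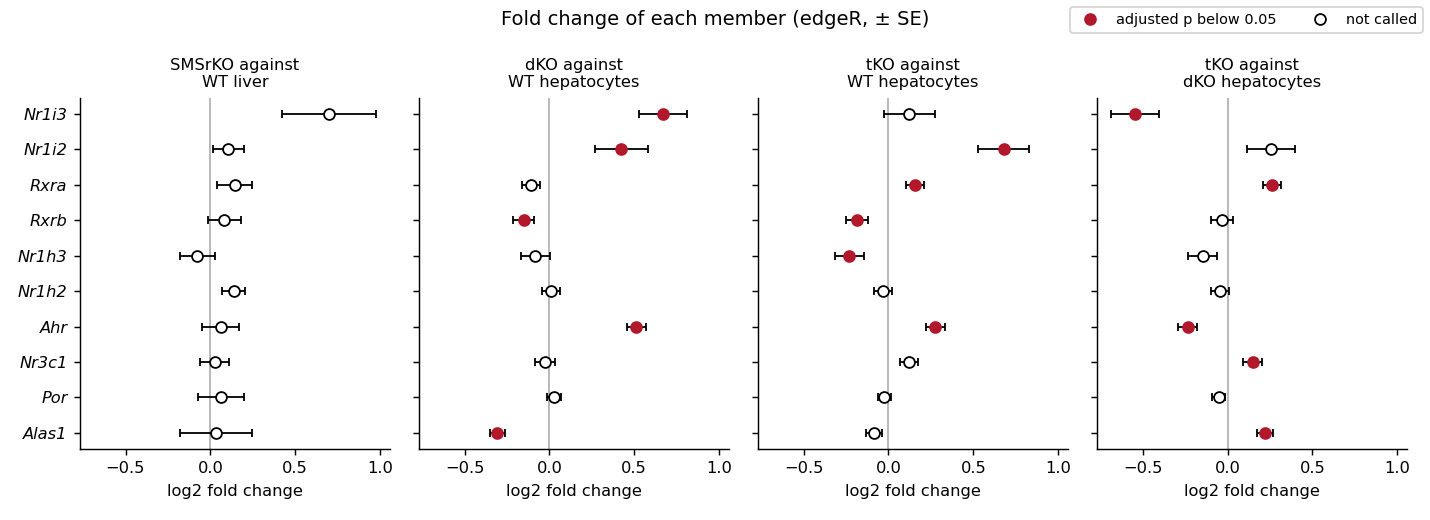
Log2 fold change of each of the 10 genes with its SE (bars) in each contrast, from edgeR. Filled points passed an adjusted p of 0.05: none in liver and 5 in each hepatocyte contrast, where the largest were Nr1i2 at 0.68 in tKO and Nr1i3 at 0.67 in dKO, both against WT.

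CAR transcripts were higher in dKO hepatocytes and close to WT in tKO hepatocytes. Nr1i3 (chromosome 1, 171213970 to 171220701, GRCm38) was at 7.74, 9.57 and 8.14 CPM in tKO, at 12.5, 14.3 and 10.4 CPM in dKO, and at 7.67, 7.999 and 7.69 CPM in WT. All dKO libraries lay above all others, and the tKO and WT libraries overlapped. The log2 fold change was 0.67 ± 0.143 in dKO against WT (SE; edgeR adjusted p = 6.21e-05) and −0.55 ± 0.139 in tKO against dKO (edgeR adjusted p = 0.00131). In tKO against WT it was 0.12 ± 0.151 (edgeR adjusted p = 0.535). These levels rest on 70 to 133 counts a library, and both calls held without any 1 library, with log2 fold changes of 0.55 to 0.78 in dKO against WT. In bulk RNA, fewer cells of a type and less RNA per cell cannot be told apart.

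In liver Nr1i3 was the gene that differed by the most among the 10. It was at 456, 484, 523 and 431 CPM in SMSrKO libraries, against 132, 339, 390 and 308 CPM in WT libraries. The groups did not overlap, and WT 1, the library that stood apart across all genes, lay far below the other WT libraries. The log2 fold change was 0.70 ± 0.278 and missed the threshold (edgeR adjusted p = 0.334), and without WT 1 it was 0.45 (edgeR adjusted p = 0.103). Groups did not overlap for 2 of the 10 genes in liver, Nr1i3 and Nr1h2, both higher in SMSrKO, where 8.12% of all tested genes had groups that did not overlap and 3.79% were higher with no overlap. Nr1i3 shares 3304 of its 4414 exonic bases in the liver annotation with Tomm40l, a mitochondrial import gene on the other strand, and no label or header states the strand setting of the counts. Tomm40l was at 78.7, 99.9, 89.0 and 69.4 CPM in SMSrKO against 18.3, 70.3, 64.5 and 50.9 CPM in WT, also lowest in WT 1, so the liver value of Nr1i3 is uncertain. In hepatocytes, where the gene lengths of Nr1i3 ran from 1394 to 1417 bases, Tomm40l was at 9.05 to 10.7 CPM in tKO, 8.97 to 9.60 CPM in dKO and 9.40 to 9.87 CPM in WT.

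PXR transcripts were higher in both knockouts. Nr1i2 (chromosome 16, 38248323 to 38294824) was at 11.6, 11.8 and 8.75 CPM in tKO, at 8.65, 8.60 and 9.60 CPM in dKO, and at 6.36, 7.13 and 6.50 CPM in WT. Every knockout library lay above every WT library, and tKO 9 lay within the dKO range. It rose in tKO with a log2 fold change of 0.68 ± 0.150 (edgeR adjusted p = 9.37e-05), which held without any 1 library. It rose in dKO by 0.42 ± 0.156 (edgeR adjusted p = 0.0210), but the edgeR adjusted p was 0.0693 without WT 1, 0.0595 without WT 3 and 0.0866 without dKO 6. In tKO against dKO it was 0.25 ± 0.142 (edgeR adjusted p = 0.177). In liver Nr1i2 was at 138, 129, 122 and 147 CPM in SMSrKO against 117, 117, 134 and 131 CPM in WT, and the groups overlapped.

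The target genes of CAR did not follow 1 direction. Of 21 CAR targets, all measured, 10 were higher and 8 lower in dKO against WT, where 44.0% of all genes were called, 9 higher and 10 lower in tKO against WT (47.4% of all genes), and 7 higher and 8 lower in tKO against dKO (29.5% of all genes). With the dispersion of the liver libraries, CAR targets gave 4 higher and 3 lower in dKO against WT, 7 and 6 in tKO against WT, and 3 and 4 in tKO against dKO. Their median log2 fold changes were 0.02, −0.13 and −0.06, against −0.0096, −0.0035 and 0.00084 over all genes. Of the P450 genes, Cyp2b10, the classical CAR target in mouse, fell to 14.1 ± 1.66 CPM in tKO and 54.1 ± 1.81 CPM in dKO, against 113 ± 9.23 CPM in WT (SD, n = 3). Its log2 fold change was −3.00 ± 0.0773 in tKO against WT (edgeR adjusted p = 3.50e-50) and −1.06 ± 0.0618 in dKO against WT (edgeR adjusted p = 1.75e-26), and it was chosen as a textbook target after its values were seen. Cyp2b9 was at 0.171 ± 0.0582 CPM in tKO and 114 ± 3.73 CPM in dKO, against 146 ± 5.02 CPM in WT. Cyp2b genes have close copies, so reads may be split among them.

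Other CAR targets rose in the same libraries. Cyp2a5, which oxidises nicotine and coumarin, rose to 7880 ± 225 CPM in tKO, against 1881 ± 28.0 CPM in dKO and 1756 ± 51.6 CPM in WT. Its log2 fold change was 2.17 ± 0.0344 in tKO against WT (edgeR adjusted p = 1.85e-65). Gstm3, a glutathione transferase, was at 160 ± 8.27 CPM in tKO and 49.2 ± 3.28 CPM in dKO, against 11.3 ± 1.90 CPM in WT, a log2 fold change of 3.83 ± 0.0776 in tKO and 2.12 ± 0.0919 in dKO. Cyp2c37 fell to 182 ± 7.33 CPM in dKO, against 322 ± 8.04 CPM in WT (log2 fold change −0.82 ± 0.0430, edgeR adjusted p = 4.15e-29), and Cyp2c29 to 439 ± 11.2 CPM in dKO, against 708 ± 15.8 CPM in WT. In liver 0 of 21 were called, or 1, higher, without WT 1, and Cyp2c37 was at 943 ± 38.3 CPM in SMSrKO against 626 ± 73.3 CPM in WT (edgeR adjusted p = 0.0874).

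PXR targets were more often called higher than lower in tKO. Of 17 PXR targets, 11 were higher and 4 lower in tKO against WT, where 25.6% of all genes were higher, and 6 were higher and 4 lower in dKO against WT, where 24.0% were higher. In tKO against dKO 11 were higher and 3 lower, where 14.3% of all genes were higher. The median log2 fold changes were 0.26 in tKO and 0.05 in dKO against WT, and 0.30 in tKO against dKO. With the liver dispersion, 6 were higher and 2 lower in tKO against WT, but 0 higher and 2 lower in tKO against dKO.

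Among the Cyp3a genes of the PXR list, Cyp3a11, its classical mouse target, rose to 2864 ± 192 CPM in tKO, against 1800 ± 38.9 CPM in dKO and 1707 ± 37.5 CPM in WT, a log2 fold change of 0.75 ± 0.0359 against WT (edgeR adjusted p = 8.75e-31). In dKO against WT the value for Cyp3a11 was 0.08 ± 0.0359 (edgeR adjusted p = 0.0741). Cyp3a41a, which is expressed more in female liver, fell in tKO and rose in dKO, at 94.3 ± 4.77 CPM in tKO and 485 ± 13.9 CPM in dKO, against 315 ± 11.6 CPM in WT. Cyp3a44, likewise a female-biased gene, was at 2.27 ± 0.540 CPM in tKO and 11.8 ± 1.21 CPM in dKO, against 30.9 ± 1.80 CPM in WT. Cyp3a genes are close copies, so reads may be split among them. Cd36, a fatty acid transporter that PXR induces and that macrophages and endothelium also express, rose to 47.9 ± 1.52 CPM in dKO, against 15.1 ± 1.25 CPM in WT. In liver Slco1a4, an organic anion uptake carrier, was at 197 ± 41.3 CPM in SMSrKO against 100 ± 17.2 CPM in WT and missed the threshold (edgeR adjusted p = 0.0680).

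**Figure D3:**
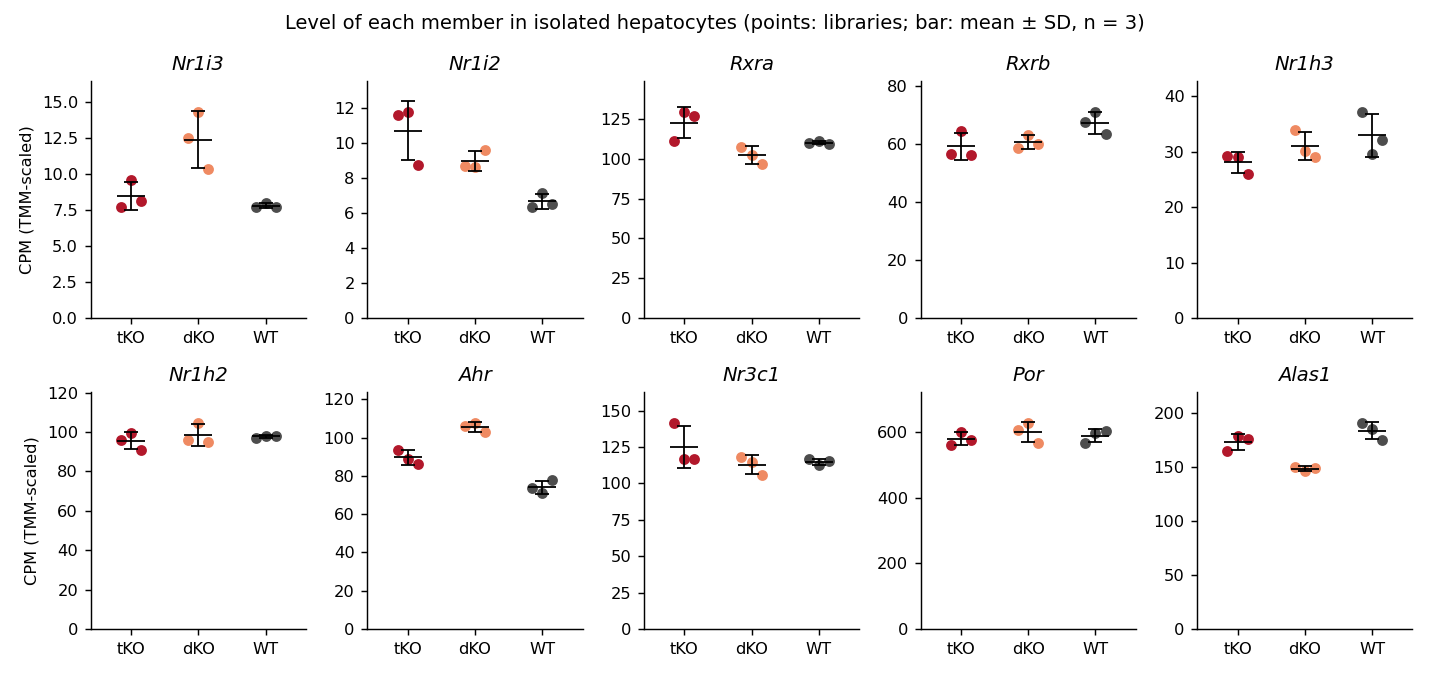
CPM of each of the 10 genes in hepatocyte libraries, with tKO left, dKO in the middle and WT right; points are libraries, bars are mean ± SD (n = 3), and each axis starts at 0. Nr1i3 and Ahr stood highest in dKO, Nr1i2 stood above WT in both knockouts, and Por and Nr1h2 lay level.

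The dimer partners moved by small amounts, and in opposite directions in tKO. Rxra (chromosome 2, 27676440 to 27762957) was at 111, 129 and 127 CPM in tKO, at 108, 102 and 96.7 CPM in dKO, and at 110, 111 and 109 CPM in WT. All tKO libraries lay above all dKO libraries, and tKO 7 lay barely above WT. Rxra rose in tKO against dKO with a log2 fold change of 0.26 ± 0.0529 (edgeR adjusted p = 4.94e-05), which held without any 1 library. In tKO against WT it was 0.15 ± 0.0525 (edgeR adjusted p = 0.0117), with an edgeR adjusted p of 0.107 without tKO 8 and 0.0761 without tKO 9. In dKO against WT it was −0.11 ± 0.0539 with groups that did not overlap (edgeR adjusted p = 0.101), and 0.0447 without dKO 4.

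Rxrb, in the major histocompatibility region of chromosome 17 (34031812 to 34038393), was at 56.6, 64.6 and 56.3 CPM in tKO, at 58.5, 63.2 and 60.1 CPM in dKO, and at 67.5, 71.0 and 63.5 CPM in WT. The dKO libraries lay just below the WT libraries, and tKO 8 lay within the WT range. It fell in tKO with a log2 fold change of −0.19 ± 0.0632 (edgeR adjusted p = 0.0111), lost without WT 2 (0.0934) or tKO 9 (0.0718). It fell in dKO with −0.15 ± 0.0634 (edgeR adjusted p = 0.0431), lost without WT 1, WT 2, dKO 4 or dKO 6, with edgeR adjusted p-values up to 0.214. In tKO against dKO it was −0.03 ± 0.0641 (edgeR adjusted p = 0.736).

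In liver Rxra was at 760, 765, 764 and 699 CPM in SMSrKO against 707, 630, 721 and 647 CPM in WT, where SMSrKO 8 fell among the WT libraries. Its log2 fold change was 0.14 ± 0.101 (edgeR adjusted p = 0.575). Rxrb was at 49.7, 45.6, 46.5 and 47.3 CPM in SMSrKO against 36.3, 46.3, 49.97 and 46.1 CPM in WT, with WT 1 lowest and the groups overlapping.

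**Figure D4:**
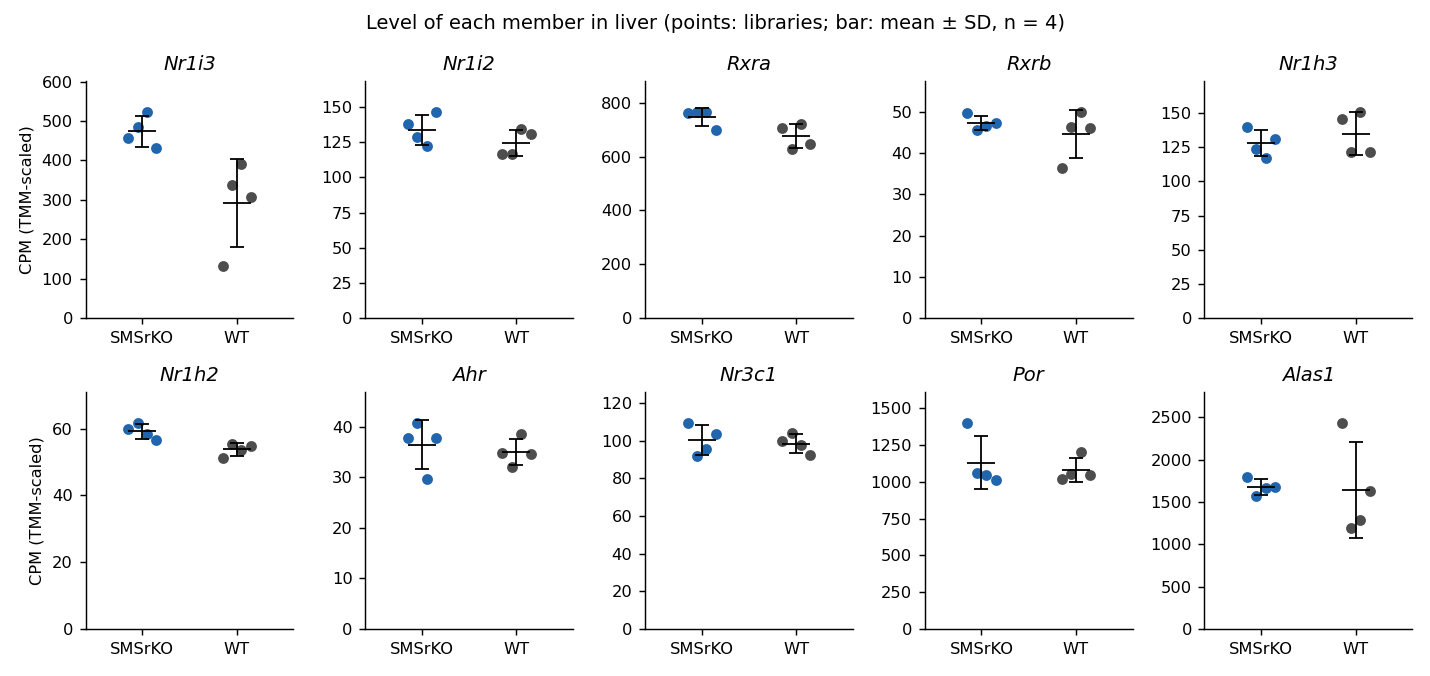
CPM of each of the 10 genes in liver libraries, with SMSrKO left and WT right; points are libraries, bars are mean ± SD (n = 4), and each axis starts at 0. The groups overlapped for 8 genes and did not for Nr1i3 and Nr1h2, and the WT library at 132 CPM of Nr1i3 stood far below the others.

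Of the liver X receptors, the liver-enriched form Nr1h3 was lower in tKO and the ubiquitous form Nr1h2 showed no detectable change. Nr1h3 (chromosome 2, 91184061 to 91202834) was at 29.3, 29.0 and 25.9 CPM in tKO, at 34.0, 30.2 and 29.1 CPM in dKO, and at 37.2, 29.6 and 32.1 CPM in WT. The tKO libraries lay just under the lowest WT library, and WT 1 was the highest. It fell in tKO against WT with a log2 fold change of −0.23 ± 0.0849 (edgeR adjusted p = 0.0199), lost without WT 1 (log2 fold change −0.14, edgeR adjusted p = 0.254) or without tKO 9 (edgeR adjusted p = 0.126). In dKO against WT it was −0.08 ± 0.0840 (edgeR adjusted p = 0.449), and in tKO against dKO it was −0.15 ± 0.0855 (edgeR adjusted p = 0.199).

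Nr1h2 (chromosome 7, 44549616 to 44553951) was at 96.2, 99.6 and 91.0 CPM in tKO, at 96.1, 105 and 94.8 CPM in dKO, and at 97.1, 98.2 and 98.2 CPM in WT, and all groups overlapped. Its log2 fold change was −0.03 ± 0.0537 in tKO and 0.01 ± 0.0537 in dKO against WT. In liver it was at 59.8, 61.8, 58.4 and 56.6 CPM in SMSrKO against 51.1, 55.4, 53.7 and 54.9 CPM in WT, with every SMSrKO library above every WT library. The log2 fold change of 0.14 ± 0.0665 missed the threshold (edgeR adjusted p = 0.410). Nr1h3 was at 140, 124, 117 and 131 CPM in SMSrKO against 146, 122, 151 and 122 CPM in WT.

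Of 16 LXR targets tested, 9 were higher and 6 lower in dKO against WT, where 44.0% of all genes were called, 7 higher and 3 lower in tKO against WT (47.4% of all genes), and 5 higher and 4 lower in tKO against dKO (29.5% of all genes). Fewer LXR targets were called with the liver dispersion, 3 higher and 3 lower in dKO against WT, 4 and 1 in tKO against WT, and 2 and 1 in tKO against dKO. The lipogenic targets Acaca and Scd1 fell in dKO and stood near WT in tKO. Acaca, which makes malonyl-CoA for fatty acid synthesis, was at 233 ± 15.4 CPM in tKO and 110 ± 8.03 CPM in dKO, against 225 ± 16.5 CPM in WT, a log2 fold change of −1.04 ± 0.0531 in dKO against WT (edgeR adjusted p = 4.49e-24). Scd1, the stearoyl-CoA desaturase, was at 3603 ± 162 CPM in tKO and 2048 ± 28.8 CPM in dKO, against 3728 ± 322 CPM in WT, a log2 fold change of −0.86 ± 0.0433 in dKO against WT (edgeR adjusted p = 1.19e-16). Srebf1, the LXR target that itself drives those genes, was higher in both knockouts, at 160 ± 3.84 CPM in tKO and 165 ± 11.1 CPM in dKO, against 127 ± 7.50 CPM in WT (log2 fold change 0.33 ± 0.0496 in tKO and 0.37 ± 0.0496 in dKO). Abca1, the cholesterol exporter, was at 236 ± 11.5 CPM in tKO and 305 ± 17.7 CPM in dKO, against 271 ± 9.55 CPM in WT, lower in tKO (edgeR adjusted p = 0.000122) and higher in dKO (edgeR adjusted p = 0.000641). Srebf1 and Abca1 were chosen as textbook targets after their values were seen.

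Further LXR targets included Lpl, a lipoprotein lipase that adult hepatocytes express little and macrophages strongly. Lpl was at 21.7 ± 1.02 CPM in tKO and 14.96 ± 0.519 CPM in dKO, against 0.543 ± 0.286 CPM in WT. The tested macrophage markers given above were also higher than in WT, but C1qa and Cd5l were lower in tKO than in dKO, and Cd68 higher. Which cells the Lpl transcripts came from was not tested. Pltp, the phospholipid transfer protein, fell to 2.82 ± 0.452 CPM in tKO, against 8.59 ± 0.789 CPM in WT (edgeR adjusted p = 2.33e-11). Lpcat3, which puts arachidonate into phospholipids, fell to 78.4 ± 2.07 CPM in tKO, against 107 ± 6.42 CPM in WT (edgeR adjusted p = 7.38e-11). In liver 0 of 16 were called, and Fasn averaged 133 ± 9.66 CPM in SMSrKO against 902 ± 1366 CPM in WT, an SD larger than the mean, with every SMSrKO library below every WT library (log2 fold change −2.76 ± 0.970, edgeR adjusted p = 0.293). Srebf1 in liver was likewise without overlap, at 304 ± 40.1 CPM in SMSrKO against 696 ± 525 CPM in WT (log2 fold change −1.20 ± 0.430, edgeR adjusted p = 0.294). Without WT 1, 1 of the LXR targets was called lower in liver.

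AHR transcripts rose in both knockouts and more in dKO. Ahr (chromosome 12, 35497974 to 35535038) was at 93.7, 88.8 and 86.3 CPM in tKO, at 106, 108 and 103 CPM in dKO, and at 73.7, 70.8 and 77.7 CPM in WT. The 3 groups did not overlap anywhere. The log2 fold change was 0.28 ± 0.0561 in tKO (edgeR adjusted p = 2.49e-05) and 0.51 ± 0.0553 in dKO (edgeR adjusted p = 6.13e-13) against WT, and −0.24 ± 0.0536 in tKO against dKO (edgeR adjusted p = 0.000290). All 3 calls held without any 1 library. The summed endothelial and stellate markers given above had the same order of groups as Ahr. The macrophage sum was instead highest in tKO, and the cholangiocyte sum in tKO overlapped WT. Any part of cell composition in the Ahr values was not tested. In liver Ahr was at 37.8, 40.8, 29.6 and 37.7 CPM in SMSrKO against 34.8, 32.1, 38.5 and 34.5 CPM in WT, and the groups overlapped.

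Of 9 AHR targets tested in hepatocytes, 5 were higher and 3 lower in dKO against WT, where 44.0% of all genes were called, 4 higher and 2 lower in tKO against WT (47.4% of all genes), and 1 higher and 3 lower in tKO against dKO (29.5% of all genes). At the liver dispersion AHR targets gave 1 higher and 0 lower in dKO against WT, 1 and 1 in tKO against WT, and 0 and 1 in tKO against dKO. Tiparp, which feeds back on AHR, rose to 84.3 ± 5.77 CPM in tKO and 93.2 ± 1.86 CPM in dKO, against 50.4 ± 4.22 CPM in WT, a log2 fold change of 0.74 ± 0.0625 in tKO and 0.89 ± 0.0620 in dKO. Cyp1a1 was low throughout, at 2.78 ± 0.156 CPM in tKO and 2.04 ± 0.111 CPM in dKO, against 1.45 ± 0.0738 CPM in WT, and passed only in tKO against WT (log2 fold change 0.93 ± 0.289, edgeR adjusted p = 0.00528). Cyp1a2, which liver expresses without added ligand, was at 231 ± 10.6 CPM in tKO and 245 ± 3.28 CPM in dKO, against 227 ± 8.08 CPM in WT, called higher in dKO alone (edgeR adjusted p = 0.0236). Cyp1a1 and Cyp1a2 were chosen as textbook targets after their values were seen. Ugdh, which makes UDP-glucuronate for conjugation, was at 675 ± 35.3 CPM in tKO and 675 ± 13.2 CPM in dKO, against 877 ± 7.99 CPM in WT. In liver 0 of 11 were called, and Cyp1a2 was at 345 ± 45.5 CPM in SMSrKO against 222 ± 35.4 CPM in WT (edgeR adjusted p = 0.119).

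The glucocorticoid receptor changed little. Nr3c1 (chromosome 18, 39410545 to 39491301) was at 142, 117 and 117 CPM in tKO, at 118, 114 and 106 CPM in dKO, and at 117, 113 and 115 CPM in WT. The tKO 7 library stood above all others, and the remaining libraries overlapped. Its call in tKO against dKO (log2 fold change 0.15 ± 0.0556, edgeR adjusted p = 0.0371) was lost without tKO 7, where the log2 fold change was 0.05 and the edgeR adjusted p was 0.559, and also without dKO 5 (0.0596) or dKO 6 (0.222). Against WT the log2 fold change was 0.12 ± 0.0556 in tKO (edgeR adjusted p = 0.0669) and −0.03 ± 0.0565 in dKO (edgeR adjusted p = 0.740); without tKO 8 or tKO 9, which leaves tKO 7 in, the first had an edgeR adjusted p of 0.0181 and 0.0198. In liver Nr3c1 was at 110, 92.0, 95.3 and 104 CPM in SMSrKO against 100, 104, 97.6 and 92.3 CPM in WT.

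Of 20 glucocorticoid receptor targets, 12 were higher and 2 lower in dKO against WT, where 44.0% of all genes were called, 9 higher and 7 lower in tKO against WT (47.4% of all genes), and 2 higher and 9 lower in tKO against dKO (29.5% of all genes). These counts became, at the liver dispersion, 5 higher and 0 lower in dKO against WT, 4 and 4 in tKO against WT, and 0 and 3 in tKO against dKO. Pdk4, which turns off pyruvate oxidation, rose to 207 ± 4.97 CPM in tKO and 219 ± 3.46 CPM in dKO, against 59.0 ± 5.44 CPM in WT. Cebpd, a transcription factor of the acute phase, was at 72.8 ± 6.69 CPM in tKO and 145 ± 3.16 CPM in dKO, against 51.4 ± 0.793 CPM in WT. Ddit4, an inhibitor of mTORC1, parted the knockouts, at 24.8 ± 1.51 CPM in tKO and 107 ± 1.32 CPM in dKO, against 58.5 ± 4.99 CPM in WT, with a log2 fold change of −1.24 ± 0.0738 in tKO and 0.88 ± 0.0596 in dKO against WT. Fkbp5, a cochaperone and sensitive target, fell in both, to 30.5 ± 2.11 CPM in tKO and 31.9 ± 2.14 CPM in dKO, against 45.2 ± 2.70 CPM in WT (log2 fold change −0.57 ± 0.0767 and −0.50 ± 0.0766). Per1, a clock gene that glucocorticoids induce, rose in both, to 59.0 ± 3.94 CPM in tKO and 71.1 ± 7.45 CPM in dKO, against 50.4 ± 5.40 CPM in WT (log2 fold change 0.23 ± 0.0720, edgeR adjusted p = 0.00719, and 0.50 ± 0.0706, edgeR adjusted p = 2.31e-08). Tsc22d3, the glucocorticoid-induced leucine zipper, was at 12.8 ± 0.834 CPM in tKO and 13.9 ± 2.12 CPM in dKO, against 13.4 ± 1.14 CPM in WT, and was called in neither. Fkbp5, Per1 and Tsc22d3 were chosen as textbook targets after their values were seen. In liver Klf9 alone of the 20 was called, at 151 ± 12.6 CPM in SMSrKO against 103 ± 5.55 CPM in WT (log2 fold change 0.55 ± 0.0873, edgeR adjusted p = 0.0434). Klf9 is a Krüppel-like factor that glucocorticoids induce. G6pc in liver went the other way with no overlap, at 185 ± 69.0 CPM in SMSrKO against 513 ± 121 CPM in WT. It missed the threshold (log2 fold change −1.47 ± 0.291, edgeR adjusted p = 0.0930). The median log2 fold change of the 20 in liver was −0.21, against −0.012 over all genes.

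Of 13 receptor chaperones and dimer partners tested in hepatocytes, a list that includes the steroid-activating enzyme Hsd11b1, 1 was higher and 4 lower in dKO against WT, where 44.0% of all genes were called, 3 higher and 1 lower in tKO against WT (47.4% of all genes), and 4 higher and 1 lower in tKO against dKO (29.5% of all genes). Under the liver dispersion 0 were called in dKO against WT, and 0 were higher and 1 lower in each of the tKO contrasts. Fkbp4, an HSP90 cochaperone of steroid receptors, was at 150 ± 5.80 CPM in tKO and 104 ± 5.74 CPM in dKO, against 159 ± 2.80 CPM in WT, and fell in dKO against WT with a log2 fold change of −0.61 ± 0.0497 (edgeR adjusted p = 1.37e-18). Stip1, which passes clients from HSP70 to HSP90, rose to 227 ± 11.6 CPM in tKO and 192 ± 11.7 CPM in dKO, against 159 ± 5.35 CPM in WT. Hsd11b1, which regenerates active glucocorticoid inside hepatocytes, fell to 119 ± 6.002 CPM in tKO and 224 ± 3.67 CPM in dKO, against 258 ± 9.27 CPM in WT (log2 fold change −1.12 ± 0.0460 and −0.21 ± 0.0434). In liver Hsd11b1 was at 562 ± 48.4 CPM in SMSrKO against 383 ± 40.8 CPM in WT (edgeR adjusted p = 0.0964).

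Of 14 coregulators, 6 were higher and 1 lower in dKO against WT, where 44.0% of all genes were called, 4 higher and 1 lower in tKO against WT (47.4% of all genes), and 0 higher and 3 lower in tKO against dKO (29.5% of all genes). The liver dispersion left 2 higher and 0 lower in dKO against WT, 2 and 0 in tKO against WT, and 0 and 0 in tKO against dKO. Ppargc1a, the coactivator of the fasting response, rose to 7.55 ± 1.08 CPM in tKO and 9.95 ± 0.350 CPM in dKO, against 3.44 ± 0.212 CPM in WT, a log2 fold change of 1.13 ± 0.184 in tKO and 1.53 ± 0.176 in dKO. Nrip1, a corepressor of metabolic receptors, rose to 99.6 ± 5.62 CPM in tKO and 104 ± 8.10 CPM in dKO, against 50.8 ± 2.55 CPM in WT. Ncoa2, a steroid receptor coactivator, fell to 50.8 ± 0.541 CPM in dKO, against 62.3 ± 1.96 CPM in WT. In liver 0 of 14 were called.

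Por, the electron donor, was level in all hepatocyte groups. Por (chromosome 5, 135670033 to 135735326) was at 561, 601 and 578 CPM in tKO, at 607, 629 and 567 CPM in dKO, and at 567, 598 and 605 CPM in WT, and all groups overlapped. The log2 fold change against WT was −0.02 ± 0.0387 in tKO (edgeR adjusted p = 0.640) and 0.03 ± 0.0387 in dKO (edgeR adjusted p = 0.609), and −0.05 ± 0.0386 in tKO against dKO. In liver it was at 1401, 1058, 1046 and 1015 CPM in SMSrKO against 1021, 1053, 1204 and 1043 CPM in WT, where SMSrKO 5 stood above the rest. Without it the log2 fold change was −0.05, and with it 0.06 ± 0.135 (edgeR adjusted p = 0.866).

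The list of electron transfer to P450 enzymes held 9 other genes, not all of them electron carriers, such as Pgrmc1 and Pgrmc2. Of these 9, 0 were higher and 3 lower in dKO against WT, where 44.0% of all genes were called. In tKO against WT 0 were higher and 5 lower (47.4% of all genes), and in tKO against dKO 1 was higher and 3 lower (29.5% of all genes). Cyb5b, a mitochondrial outer membrane cytochrome b5, fell to 251 ± 11.3 CPM in tKO and 261 ± 4.77 CPM in dKO, against 295 ± 7.34 CPM in WT (log2 fold change −0.23 ± 0.0417 and −0.18 ± 0.0417). Pgrmc1, a heme-binding partner of P450 enzymes, fell to 994 ± 22.0 CPM in tKO and 948 ± 35.8 CPM in dKO, against 1087 ± 20.6 CPM in WT. Cyb5r3, the cytochrome b5 reductase, was at 259 ± 9.97 CPM in tKO and 235 ± 5.12 CPM in dKO, against 279 ± 8.01 CPM in WT, and fell in dKO (edgeR adjusted p = 8.52e-07). With the liver dispersion 0 of 9 were called in each contrast.

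Alas1 fell in dKO hepatocytes and was near WT in tKO hepatocytes. Alas1 (chromosome 9, 106233455 to 106248654) was at 165, 178 and 176 CPM in tKO, at 150, 146 and 149 CPM in dKO, and at 191, 185 and 175 CPM in WT. The dKO libraries lay below all others, and tKO and WT overlapped. Its log2 fold change was −0.31 ± 0.0466 in dKO against WT (edgeR adjusted p = 4.49e-08) and 0.22 ± 0.0466 in tKO against dKO (edgeR adjusted p = 8.58e-05), both held without any 1 library, and −0.08 ± 0.0457 in tKO against WT (edgeR adjusted p = 0.125). In liver it was at 1792, 1571, 1669 and 1676 CPM in SMSrKO against 2436, 1193, 1288 and 1632 CPM in WT, where WT 1, the library lowest in Nr1i3, was the highest of all 8. The groups overlapped.

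Fech and Cpox, which act late in heme synthesis, fell in both knockouts. Of 15 genes of heme synthesis and breakdown, 3 were higher and 5 lower in dKO against WT, where 44.0% of all genes were called, 2 higher and 4 lower in tKO against WT (47.4% of all genes), and 3 higher and 2 lower in tKO against dKO (29.5% of all genes). With the liver dispersion 0 were lower in each contrast, so that the calls of Fech and Cpox were lost, and 1 was higher, in tKO against WT. Fech, which inserts iron into protoporphyrin, fell to 87.1 ± 7.002 CPM in tKO and 84.7 ± 1.22 CPM in dKO, against 114 ± 4.98 CPM in WT. Cpox, the coproporphyrinogen oxidase, fell to 37.4 ± 1.87 CPM in tKO and 37.1 ± 2.99 CPM in dKO, against 49.9 ± 1.43 CPM in WT. On the breakdown side Blvrb, a biliverdin reductase, rose to 171 ± 5.95 CPM in tKO, against 116 ± 2.68 CPM in dKO and 104 ± 7.47 CPM in WT.

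**Figure D5:**
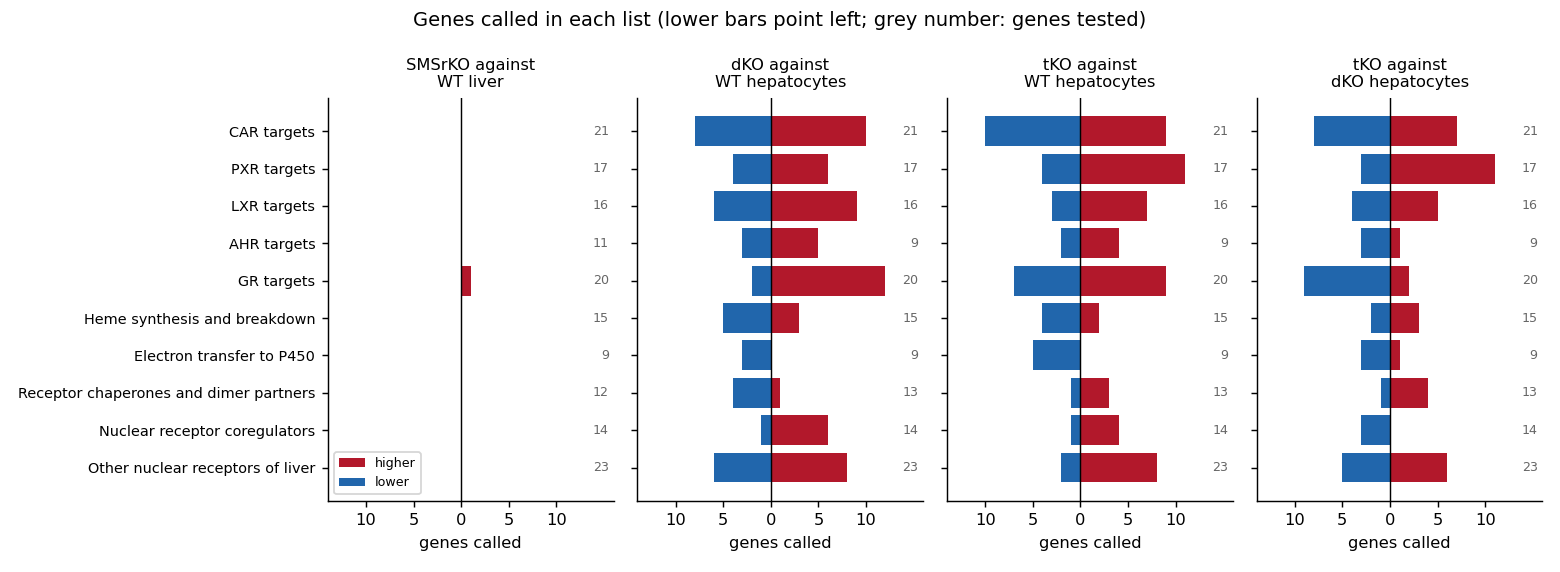
Number of genes called by edgeR (adjusted p under 0.05) in 10 lists of targets and partners, higher to the right and lower to the left of 0, in each contrast; grey numbers give the genes tested. In liver 1 gene was called in all 10 lists, while 11 of 17 PXR targets were higher in tKO against WT and CAR targets split into 9 higher and 10 lower.

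Of 23 other nuclear receptors tested, 8 were higher and 6 lower in dKO against WT, where 44.0% of all genes were called, 8 higher and 2 lower in tKO against WT (47.4% of all genes), and 6 higher and 5 lower in tKO against dKO (29.5% of all genes). Using the liver dispersion, 3 were higher and 1 lower in dKO against WT, 2 and 0 in tKO against WT, and 1 and 0 in tKO against dKO. Nr1d1, a clock repressor that binds heme, rose to 84.9 ± 8.83 CPM in tKO and 88.7 ± 7.21 CPM in dKO, against 44.8 ± 2.47 CPM in WT, and its paralogue Nr1d2 to 139 ± 9.75 CPM in tKO and 150 ± 5.09 CPM in dKO, against 106 ± 5.93 CPM in WT. Hnf4a, a master factor of hepatocytes, was at 173 ± 10.1 CPM in tKO and 122 ± 1.76 CPM in dKO, against 158 ± 1.03 CPM in WT, and was higher in tKO than in dKO (log2 fold change 0.50 ± 0.0477, edgeR adjusted p = 6.14e-15). In liver 0 of 23 were called, and Nr1d1 was at 127 ± 29.0 CPM in SMSrKO against 69.2 ± 20.7 CPM in WT (edgeR adjusted p = 0.166).

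Over the 9 hepatocyte libraries, which share genotype groups and cell composition, the genes most like each in log2 CPM were found among 9308 others. For Ahr they were Rnd1 (Pearson r = 0.991) and Wsb1 (r = 0.990), for Alas1 Cltb (r = 0.978) and Lpin3 (r = 0.975), and for Nr1i3 Slc25a47 (r = 0.967) and Bckdha (r = 0.964). For Nr1i2 they were Tmem50a (r = 0.974) and Foxn2 (r = 0.967), for Rxra Trp53bp1 (r = 0.973) and Gbf1 (r = 0.964), and for Rxrb Mrpl36 (r = 0.958) and Slc29a3 (r = 0.958). Values were lower for the genes that hardly moved, such as Por with Uqcrh (r = 0.901) and Nr1h2 with Rabggtb (r = 0.897). Among the 10 genes themselves, Ahr and Alas1 ran opposite to each other (r = −0.94), as did Nr1i3 and Alas1 (r = −0.83), while Nr1i3 ran with Ahr (r = 0.82). These are descriptions over 9 libraries in 3 groups and carry no test.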

How the data were processed

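The 10 genes and the lists of targets, partners and markers were chosen with earlier results of these data known. For liver, the authors deposited whole-number counts and TPM per Ensembl gene on GRCm38, per the file headers and the submitters' processing notes. TPM recomputed from counts and lengths differed by at most 5e-05. For hepatocytes, the files deposited by the authors held expected counts and FPKM per Entrez gene. As 6.25% of those values had decimals, they were rounded. Trimmomatic 0.36, STAR 2.5.2b, Bowtie2 2.2.5 and DESeq2 1.30.1 are named in the submitters' processing notes; their roles and the strand setting are not stated. In R 4.3.3, edgeR 4.0.16 removed low genes (filterByExpr, minimum count 10), applied TMM and ran its robust quasi-likelihood test, with Benjamini-Hochberg adjustment over all tested genes at 0.05. The liver libraries formed 1 fit and the 9 hepatocyte libraries another. SE was taken as the absolute log2 fold change over the root of the F statistic. CPM used TMM, except in marker sums. DESeq2 1.42.0 and limma 3.58.1, with log2 of the deposited values plus 1 or 0.1, served as alternatives. The liver-dispersion setting ran edgeR's likelihood ratio test on the hepatocytes, with the common dispersion of the liver fit for every gene. Scripts were tested on simulated data. In each of the 10 lists, up to 3 called genes a hepatocyte contrast with the smallest p, at least 5 CPM and groups without overlap could be named, and up to 2 in liver. Promoters and annotation came from RefSeq and GENCODE on GRCm38.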

Additional observations from a re-analysis of the deposited data

Results flagged for a closer look

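Rxra in SMSrKO liver had 1 library, SMSrKO 8 at 699 CPM, that lay far below the other 3 at 760 to 765 CPM, with a gap of 0.923 of the group's whole range. Por in SMSrKO liver had 1 library, SMSrKO 5 at 1401 CPM, far above the other 3 at 1015 to 1058 CPM, with a gap of 0.888 of the range. Chance gives such a gap in about 1 group in 20, and 20 groups of 4 liver libraries were looked at. Nr1i3 had opposite signs in the experiments, with a log2 fold change of 0.70 in SMSrKO against WT liver, where every SMSrKO library lay above the WT mean, and −0.55 in tKO against dKO hepatocytes, where every tKO library lay below the dKO mean. This difference was not tested, the liver value missed the threshold, and the liver count shares exons with Tomm40l.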

How the results depend on the processing

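No paired analysis was possible because the groups compared share no replicate number. Over 560 alternative values of the 10 genes, 489 kept their direction and side of the threshold, 44 fell short of it, 4 passed it and 23 changed sign. All 23 belonged to values that were not called. In liver they were Rxrb at −0.0084 without WT 1; Ahr at −0.0078 with library totals alone and −6.3e-05 with limma plus 0.1; Nr3c1 at −0.046 with library totals alone, −0.029 with limma plus 1, −0.030 with limma plus 0.1, −0.0047 without WT 4 and −0.020 without SMSrKO 5; Por at −0.0085 with library totals alone and −0.054 without SMSrKO 5; and Alas1 at −0.027 with library totals alone, −0.089 without WT 2 and −0.077 without WT 3. The liver leave-one-out ranges were −0.0084 to 0.13 for Rxrb, −0.020 to 0.065 for Nr3c1, −0.054 to 0.11 for Por and −0.089 to 0.29 for Alas1. In dKO against WT hepatocytes the leave-one-out ranges were −0.16 to 0.0098 for Nr1h3, −0.036 to 0.036 for Nr1h2, −0.062 to 0.016 for Nr3c1 and −0.0080 to 0.065 for Por. In tKO against dKO they were −0.10 to 0.0023 for Rxrb and −0.074 to 0.0024 for Nr1h2. Por in tKO against WT was 0.0055 with library totals alone and 0.0052 with limma at either pseudocount.

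The liver count of 37 genes became 454 with DESeq2, 136 with no filter and 11 to 109 without 1 library. With library totals alone 15 were higher and 24 lower, against 19 and 18 in the TMM fit. With the liver dispersion 1055, 1221 and 326 genes and 0, 0 and 0 of the 10 were called in the dKO and tKO contrasts with WT and in tKO against dKO, against 5045, 5435 and 3382 genes and 5, 5 and 5 of the 10. DESeq2 called 3 of the 10 in dKO and 3 in tKO against WT, and leaving out 1 library gave 3 to 5 in each of these. In these settings the cause was not tested, other than the fewer samples or larger spread that the settings bring by construction. The liver-dispersion setting also brings the likelihood ratio test. In liver, 4 libraries a group with a 20.3% coefficient of variation limit what could be called, and CAR and PXR in hepatocytes rest on 58 to 133 counts a library.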
